A study of Danio rerio with 3 samples.

Results

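The miR-430 family was measured with 5 probes, dre-miR-430a, dre-miR-430b, dre-miR-430c, dre-miR-430i and dre-miR-430j (the prefix dre is for zebrafish and is left out below), out of 218 named zebrafish miRNA probes on the array. The members were taken by probe name, and each had 4 spots, which gives 20 of the 9984 spots of an array. The RNA came from wild-type AB embryos at 5 hpf (hours after fertilization) that had been injected at the earliest cleavage stages with a control morpholino (control MO), a *lin-28a* MO or a *lin-28b* MO. Both *lin-28* morpholinos were designed against the splice donor behind the first exon of their gene. There was 1 array for each of these 3 groups, and the sources used here do not say how many embryos were pooled for each. On a 2-colour miRCURY LNA array, whose probes are locked nucleic acid oligonucleotides complementary to mature miRNAs, embryo RNA carried the dye Hy3 and a Universal Reference carried Hy5. The Hy3/Hy5 ratio of a spot therefore compares an injected sample with that reference. With 1 array per group no difference between groups has a replicate check on these arrays, and no test was run. The paper also reports a replicated assay, quantitative RT-PCR, on embryos of the same age. There it found miR-430a and miR-430b significantly lower in both morphants, and no significant rise of the miRNAs let-7a and let-7b. At a later stage, which these arrays do not cover, the same kind of assay found let-7a and let-7b significantly higher in both morphants. The paper shows no such assay for the other miR-430 members, and its measurements were not used here. For both morphants it also describes growth retardation and, at 5 hpf, a lower share of cells labelled with BrdU, a marker of proliferation. The groups were thus matched in hours, and a part of this retardation in their differences was not tested. Each SD below is over the 4 spots of 1 probe and is technical.

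miR-430 is the miRNA family that zebrafish embryos transcribe in large amounts when their own genome is switched on. The mature miRNAs bind sites in maternal mRNAs and promote their deadenylation and clearance, and embryos that cannot make mature miRNAs show morphogenetic defects which injected miR-430 relieves in part. Its members are copies of closely related hairpins with a very similar seed, the 5′ part of a miRNA that pairs with targets, so 1 probe may also take up signal from other members. Lin-28 is an RNA-binding protein best known for blocking the maturation of let-7 miRNAs. The question put to these arrays was which miRNAs differ when Lin-28a or Lin-28b is knocked down.

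In the RefSeq annotation of the GRCz12tu assembly, 58 miR-430 genes were listed, 57 of them on chromosome 4 and 1 on chromosome 10. They were annotated as 18 copies of miR-430a, 19 of miR-430b, 18 of miR-430c and 3 of miR-430i, so that 4 of the 5 members were matched by name and miR-430j was not. On chromosome 4 they stood in 3 runs of neighbouring genes, of 46, 1 and 10 genes, with no other gene starting inside a run. Along these runs, neighbouring genes were mostly but not always different members. Of 54 neighbour pairs, 43 joined 2 different members, most often miR-430a followed by miR-430c (10 pairs), miR-430b followed by miR-430a (10 pairs) and miR-430c followed by miR-430b (8 pairs), read in the direction of the coordinates. All 3 miR-430i genes lay in the run of 10 genes, beside copies of miR-430a and miR-430b and with no miR-430c copy among them.

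In control MO-injected embryos, 4 of the 5 probes were among the brightest zebrafish miRNA probes of the array. miR-430j had the highest Hy3 signal of the 218 probes, with a mean of 783 (SD over 4 spots 150) in scanner units. It was followed by miR-430b at 706 (SD 245) and miR-430c at 349 (SD 51.6), in ranks 2 and 3. miR-430a stood in rank 5 with 216 (SD 46.2). The Hy3 mean of miR-430i was only 21.0 (SD 2.82), which put it in rank 77. The median of the 218 probes was 17.0, so miR-430i was dim here while the other members were far above the bulk of the array. Hy3 signals of different probes also depend on probe affinity, and their order is not an order of abundance.

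The same 4 probes remained near the top in both morphants, at lower Hy3 signals. In *lin-28a* morphants, the mean Hy3 signal was 517 for miR-430b, 497 for miR-430j, 158 for miR-430c and 123 for miR-430a, in ranks 1, 2, 4 and 6. In *lin-28b* morphants, it was 488 for miR-430b, 438 for miR-430j, 104 for miR-430a and 101 for miR-430c, in ranks 1, 2, 4 and 5. miR-430i stayed in the dim range, at 19.1 in *lin-28a* and 19.9 in *lin-28b* morphants. miR-430c thus moved from rank 3 in control to rank 5 in *lin-28b* morphants, while miR-430b passed miR-430j on both morphant arrays. The Hy3 means of miR-430b and miR-430j differed by less than the SD of the 4 spots of at least 1 of the pair on each of the 3 arrays.

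For the 4 bright probes the Hy3/Hy5 ratio was above 1 in control MO-injected embryos and below 1 in both morphants, at every spot. The labels do not say whether Hy5 held a blend of the samples, so no meaning is given here to the value 1 itself. The 4 spots of miR-430j gave ratios of 1.36, 1.42, 1.34 and 1.27 on the control MO array, and 0.660, 0.621, 0.639 and 0.642 on the *lin-28a* MO array. On the *lin-28b* MO array they gave 0.774, 0.749, 0.765 and 0.776. No spot of a morphant array reached a control spot, and the *lin-28a* spots lay below the *lin-28b* spots.

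miR-430b had the same order of arrays. Its spot ratios were 1.30, 1.32, 1.27 and 1.26 in control, 0.668, 0.662, 0.658 and 0.660 in *lin-28a* morphants, and 0.829, 0.804, 0.814 and 0.782 in *lin-28b* morphants. The 3 arrays did not overlap, and on the *lin-28a* MO array the ratio varied over the spots by a CV of only 0.633%.

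For miR-430c, *lin-28b* morphants were lowest on average. The spots read 1.20, 1.16, 1.19 and 1.17 in control, 0.713, 0.665, 0.704 and 0.694 in *lin-28a* morphants, and 0.674, 0.515, 0.561 and 0.668 in *lin-28b* morphants. The control spots stood apart, whereas the morphant arrays overlapped, because the spots of the *lin-28b* MO array spread by a CV of 13.1%.

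At miR-430a the morphants were nearly level. Its ratios were 1.35, 1.28, 1.36 and 1.28 in control, 0.843, 0.778, 0.807 and 0.808 in *lin-28a* morphants, and 0.845, 0.728, 0.730 and 0.826 in *lin-28b* morphants. The morphant arrays overlapped each other and neither overlapped control.

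miR-430i had no such separation. Its ratios were 1.25, 1.65, 1.49 and 0.929 in control, 1.36, 1.15, 0.973 and 1 in *lin-28a* morphants, and 1.15, 1.65, 1.21 and 1.34 in *lin-28b* morphants. All 3 arrays overlapped, with spot CVs between 15.8% and 23.7%. At a probe this dim, a change of the size seen at the other members could not be judged well.

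**Figure D1:**
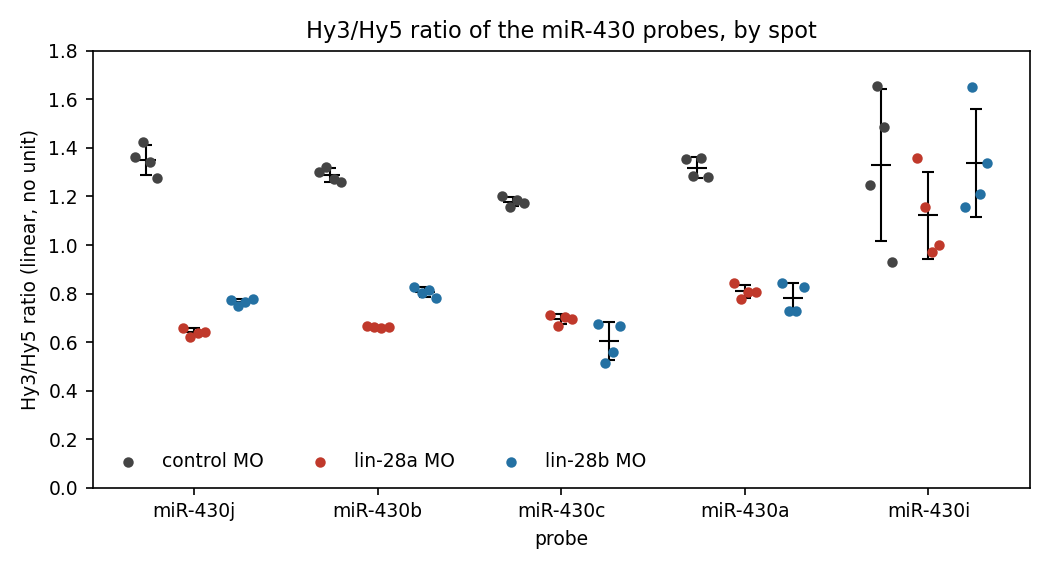
Hy3/Hy5 ratio (linear axis) of the 5 miR-430 probes, with 1 point for each of 4 spots on each of the 3 arrays; bars give the mean and SD over spots. For miR-430j, miR-430b, miR-430c and miR-430a all control spots lie between 1.16 and 1.42 and all morphant spots between 0.515 and 0.845, while the 3 arrays overlap at miR-430i.

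Expressed as a log2 fold of the mean ratio over control MO, the 4 bright members were lower in *lin-28a* morphants by more than 1.5-fold. The values were -1.08 (SD over spots 0.09) for miR-430j, -0.96 (SD 0.03) for miR-430b, -0.76 (SD 0.02) for miR-430c and -0.70 (SD 0.04) for miR-430a, with a median of -0.86. In linear terms miR-430j was 2.11-fold and miR-430a 1.63-fold lower. The dim miR-430i had a log2 fold of -0.25 with an SD of 0.39, and 2 of its 4 spots were below control. The study's rule asked for more than 1.5-fold, for spots with a CV below 50% and for Hy3 above 100, taken here on at least 1 of the arrays compared. By it 4 of 4 bright members were lower, and with them 44.4% of the 9 zebrafish miRNAs within the CV and signal limits. Of the 5 other zebrafish miRNAs that met the signal and CV limits, 0 were lower in *lin-28a* morphants. Among 102 unnamed probes that met the same limits 9.8% were lower. The Hy3 limit could be met there through the brighter control array alone, whereas the 4 members exceeded it on all 3 arrays. Of 46 unnamed probes over it on all 3 arrays, a choice that leaves out probes that dimmed, 0% were lower, and the lowest log2 fold was -0.55. Of 72 with a mean over the 3 arrays above it, 2.78% were lower. Both of these sets were added with the values in view. With no limit on Hy3, 7.18% of 209 zebrafish miRNAs, the family included, were lower, and 5.39% of the 204 outside the family. The zebrafish miRNAs as a whole had a median log2 fold of -0.14, and miR-430j, miR-430b, miR-430c and miR-430a held ranks 1, 3, 6 and 8 from the lowest.

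In *lin-28b* morphants, all 4 bright members were again lower by more than 1.5-fold, and the share of other bright probes that were lower depended on how brightness was required. The log2 folds were -0.96 (SD over spots 0.18) for miR-430c, -0.82 (SD 0.09) for miR-430j, -0.75 (SD 0.12) for miR-430a and -0.67 (SD 0.03) for miR-430b, with a median of -0.79. That of miR-430i was 0.01 (SD 0.35). Position by position, the log2 fold of this dim probe was above that of each bright member in both morphants. The smallest differences were 0.14, from miR-430a in *lin-28a* morphants, and 0.35, from miR-430b in *lin-28b* morphants. Of the 5 other bright zebrafish miRNAs, 1, the epithelial miR-203a, was lower (20% of 5, or 55.6% of 9 with the family included). Among the 102 unnamed probes over the Hy3 limit on at least 1 array 36.3% were lower. The share was 26.4% of the 72 chosen on their mean Hy3 and 8.7% of the 46 over the limit on all 3 arrays. Of the 102, 9 had a log2 fold as low as miR-430c, 17 as low as miR-430j, 23 as low as miR-430a and 31 as low as miR-430b. Of the 72, the numbers were 3, 9, 12 and 15 in the same order. Of the 46, a choice that leaves out probes that dimmed, 0 were as low as miR-430c. Among these 46, 1 was as low as each of the other bright members. In *lin-28a* morphants the numbers among the 102 were 6, 1, 6 and 2 for these members in the same order. They were 0 for each among the 72 and among the 46. With no limit on Hy3, 3.33% of 210 zebrafish miRNAs, the family included, were lower in *lin-28b* morphants, around a median log2 fold of -0.14. Outside the family the share was 1.46% of 205. miR-430c, miR-430j, miR-430a and miR-430b held ranks 1, 3, 5 and 6 from the lowest. The morphants were set against a single control array, so their like direction is not 2 separate observations.

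**Figure D2:**
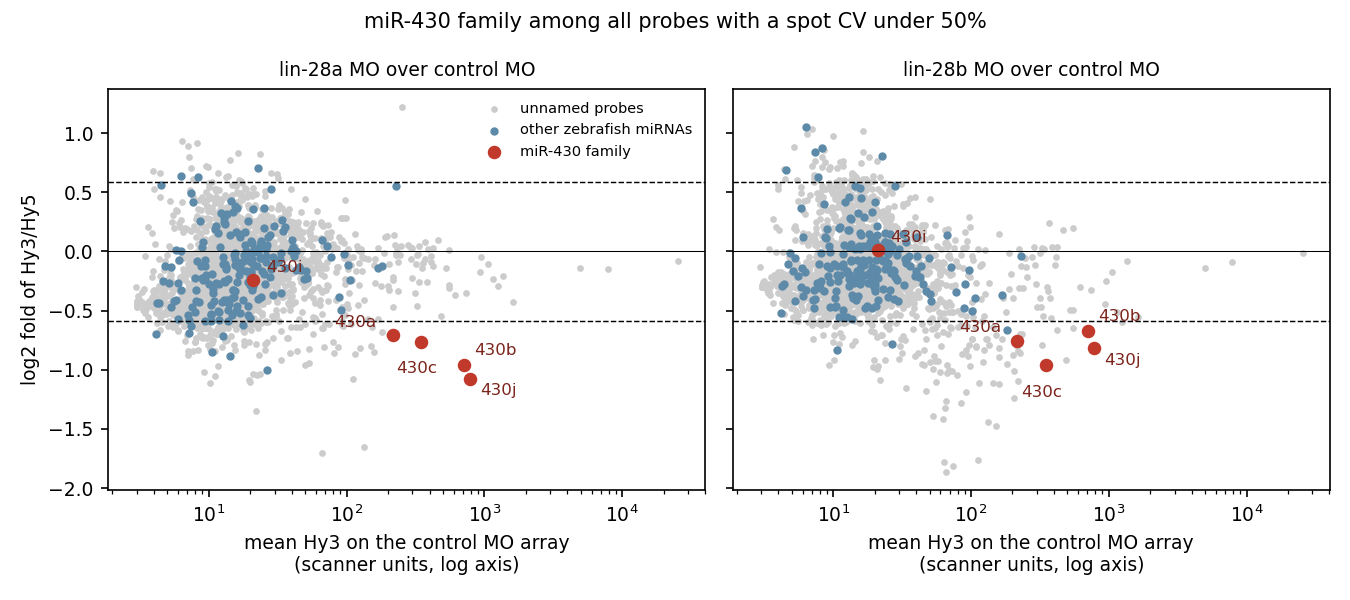
log2 fold of Hy3/Hy5 over control MO against the mean Hy3 signal on the control MO array (log axis), for all probes whose spot CV was below 50% on each array compared; dashed lines mark 1.5-fold. The bright miR-430 members (red) lie below the lower line in both morphants, where 9.8% (*lin-28a* MO) and 36.3% (*lin-28b* MO) of unnamed probes that met the Hy3 limit on 1 array or both do so, and miR-430i lies within the bulk of dim probes.

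Separation of the spots was more common on these arrays than a 1.5-fold change. All 4 bright members had their 4 spots below every control spot in both morphants. By the same measure, 35.3% of the 102 bright unnamed probes and 18.2% of the 209 zebrafish miRNAs were below control in *lin-28a* morphants. For *lin-28b* morphants these shares were 58.8% of 102 and 13.8% of 210.

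Array-wide shifts touched how many members passed 1.5-fold. Centring each array on 203 other zebrafish miRNAs, those with a spot CV under 50% on all 3 arrays, added 0.21 to every log2 fold of the *lin-28a* and 0.18 to every one of the *lin-28b* comparison. Then 2 members stayed past 1.5-fold in *lin-28a* morphants, miR-430j at -0.87 and miR-430b at -0.75, while miR-430c was at -0.55 and miR-430a at -0.49. In *lin-28b* morphants 2 stayed as well, miR-430c at -0.78 and miR-430j at -0.64, with miR-430a at -0.57 and miR-430b at -0.50. A loess fit within each array left 3 members past 1.5-fold in the first comparison and 2 in the second. Under both of these settings the 4 members kept a log2 fold below 0 in each morphant.

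The Hy3 and Hy5 channels contributed differently at different members. At miR-430c and miR-430a, Hy3 fell in *lin-28a* morphants by 1.14 and 0.81 on the log2 scale. The mean Hy5 of miR-430c was lower, with a log2 change of -0.38 (SD over spots 0.60) and 3 of 4 spots below control. That of miR-430a changed little, by -0.10 (SD 0.57), with 2 of 4 spots below control. At miR-430j and miR-430b, Hy3 was lower by less, with log2 changes of -0.66 (SD 0.30) and -0.45 (SD 0.52), while Hy5 was higher by 0.42 (SD 0.26) and 0.52 (SD 0.50). The low ratios of miR-430j and miR-430b in *lin-28a* morphants thus combined, in the mean over spots, a lower sample signal with a higher reference signal. Taking the 46 unnamed probes whose Hy3 exceeded 100 on all 3 arrays, the median log2 change on the *lin-28a* MO array was -0.31 for Hy3 and -0.28 for Hy5. Of these 46 probes, 0 had a higher Hy5 change than miR-430b and 1 had a higher one than miR-430j, against 13 for miR-430a and 34 for miR-430c. A higher Hy3 change was found at 30 of the 46 for miR-430b, 35 for miR-430j, 37 for miR-430a and 44 for miR-430c.

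The single spots of miR-430b did not all show both changes, since Hy5 was not higher at position 1 and Hy3 was not lower at position 3. Its Hy3 signal at the 4 positions was 992, 828, 496 and 508 on the control MO array and 501, 529, 545 and 492 on the *lin-28a* MO array, so that these arrays overlapped in Hy3. The Hy5 signal was 762, 627, 390 and 404 in control and 750, 799, 828 and 745 in *lin-28a* morphants. Hy3 alone would place spot position 3 slightly above control, whereas the ratio there was 1.27 in control and 0.658 in *lin-28a* morphants.

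On the *lin-28b* MO array, Hy3 fell by 1.79 on the log2 scale at miR-430c, by 1.06 at miR-430a, by 0.84 at miR-430j and by 0.53 at miR-430b. The log2 change of Hy5 was -0.85 at miR-430c, -0.31 at miR-430a, -0.02 at miR-430j and 0.14 at miR-430b. How much dimmer this array was depended on the probes taken. Over the 218 zebrafish probes the median Hy3 was 17.0 in control and 15.5 in *lin-28b* morphants, and the median Hy5 14.9 and 13.9. The 4 bright spike controls described below had a median log2 change of -0.36 in Hy3 and -0.43 in Hy5. The 46 bright unnamed probes had a median log2 change of -1.15 in Hy3 and -0.94 in Hy5, so that the Hy3 of miR-430b, miR-430j and miR-430a fell by less than this median and that of miR-430c by more. Scaling Hy3 alone on these 46 probes put miR-430b at a log2 fold of 0.56, miR-430j at 0.26 and miR-430a at 0.04 in *lin-28b* morphants, and left miR-430c at -0.70. The same scaling in *lin-28a* morphants gave -0.94 for miR-430c, -0.60 for miR-430a, -0.45 for miR-430j and -0.25 for miR-430b. In *lin-28b* morphants, 3 of the 4 bright members thus had a log2 fold below 0 by the ratio and by unscaled Hy3. Theirs was above 0 by Hy3 scaled on these 46 probes, and Hy3 was scaled on no other set. At miR-430i neither channel moved by more than 0.14 on the log2 scale in either morphant. The part of array brightness in these results was not tested.

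**Figure D3:**
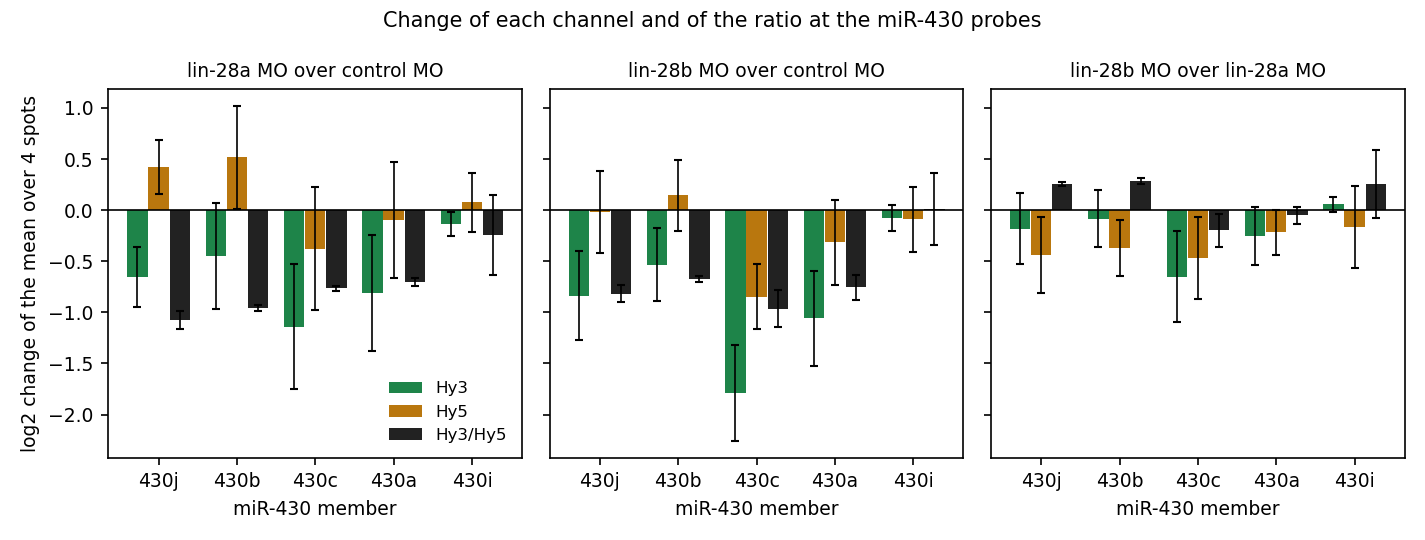
log2 change of the mean Hy3 signal, the mean Hy5 signal and the mean Hy3/Hy5 ratio at each miR-430 probe, for the 3 comparisons of arrays; error bars are the SD over 4 spot positions. Hy5 is higher at miR-430j and miR-430b in *lin-28a* MO (0.42 and 0.52), and Hy3 falls most at miR-430c (-1.14 and -1.79 in the *lin-28a* and *lin-28b* comparison).

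Brightness varied more than the ratio did over the 4 spots of the bright members. Positions here are the listed order of a probe's spots and were not matched to places on the slide. For the 4 bright members, the CV of Hy3 over the spots was 14.8% to 34.7% on the control MO array, 4.75% to 30.5% on the *lin-28a* MO array and 16.6% to 35.1% on the *lin-28b* MO array. The CV of the ratio was 1.61% to 4.54%, 0.633% to 3.27% and 1.59% to 13.1%. The control MO array was brightest at position 1, where miR-430c had a Hy3 signal of 412 against 286 at position 4. On the *lin-28a* MO array miR-430c ran the other way, with 127 at position 1 and 225 at position 4. The log2 change of its Hy3 in *lin-28a* morphants accordingly ranged over positions from -1.70 to -0.35, but that of its ratio only from -0.80 to -0.75. The 46 bright unnamed probes showed part of the same layout, with a median Hy3 of 439 at position 1 and 361 at position 4 on the control MO array, and of 346 and 369 on the *lin-28a* MO array.

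**Figure D4:**
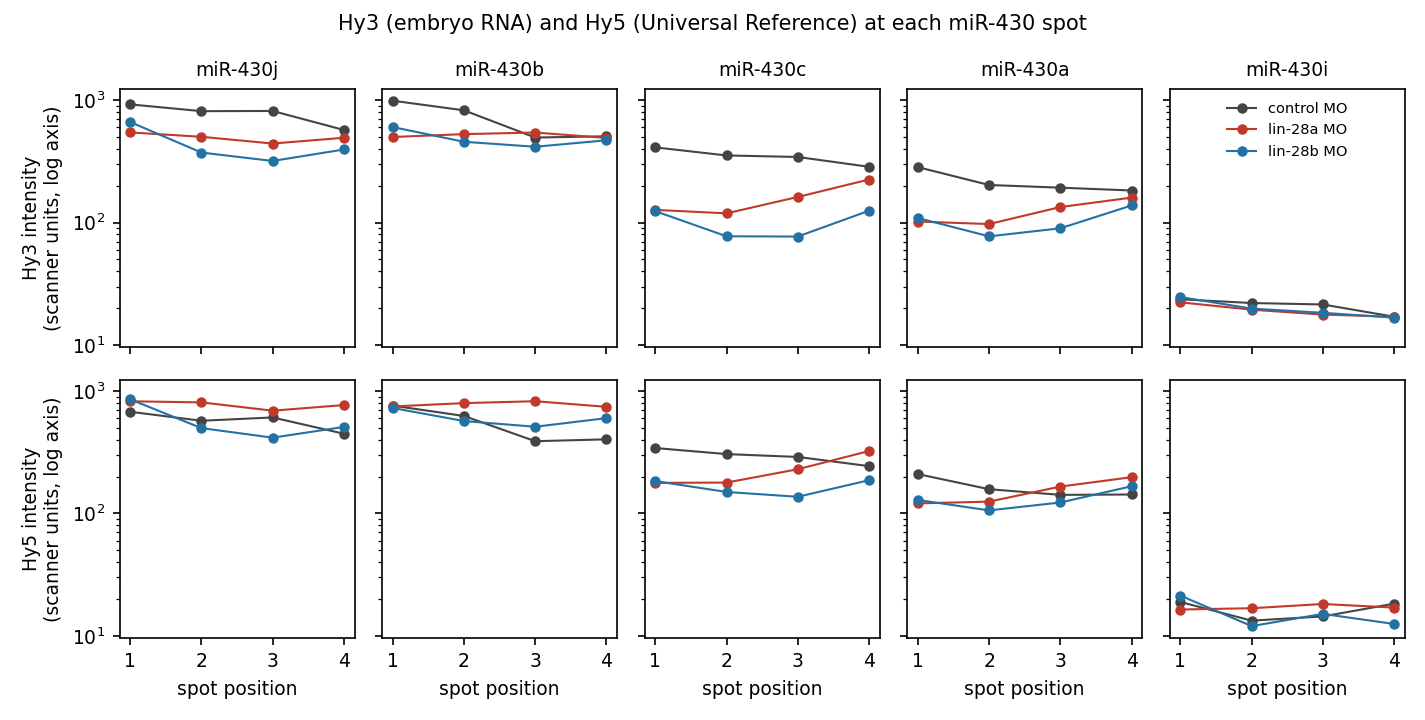
Hy3 (upper row) and Hy5 (lower row) intensity in scanner units (log axis) of each miR-430 probe at its 4 spot positions, in the order of the spot table, on the 3 arrays. At the bright members Hy3 and Hy5 move together over positions. On the *lin-28a* MO array miR-430c goes from 127 to 225 in Hy3 and from 178 to 324 in Hy5. miR-430i stays between 16.7 and 24.6 in Hy3, and its channels do not move together on every array.

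Set directly against each other, without the control array, the morphants had log2 differences of either sign, depending on the member. The ratio in *lin-28b* morphants was higher than in *lin-28a* morphants for miR-430b, with a log2 difference of 0.29 (SD 0.03 over the spots), and for miR-430j, at 0.26 (SD 0.02). It was lower at miR-430c, at -0.20 (SD 0.16), where all 4 positions were lower, and close to level at miR-430a, at -0.05 (SD 0.08). The dim miR-430i had 0.25 (SD 0.34). None of these passed 1.5-fold in either direction. For comparison, 12.5% of 72 unnamed bright probes were lower by over 1.5-fold and 0% were higher, and 0.465% of 215 zebrafish miRNAs of any brightness were past it in each direction.

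The values of miR-430b and miR-430j stood at the upper edge of bright probes in this comparison. The 72 unnamed bright probes had a median log2 fold of -0.21 and a highest value of 0.21, which both members exceeded. These 72 could meet the Hy3 limit through the brighter *lin-28a* MO array alone, a choice that favours probes lower in *lin-28b* morphants. Among 74 unnamed probes chosen on their mean Hy3, 1 was as high as miR-430j and 0 were as high as miR-430b. Among the 215 zebrafish miRNAs of any brightness, with a median of 0.06, miR-430b and miR-430j held ranks 205 and 199 from the lowest. Every *lin-28b* spot of these members lay above every *lin-28a* spot, a pattern found at 2.78% of the 72 unnamed bright probes and at 4.65% of 215 zebrafish miRNAs of any brightness. Position by position, the log2 fold of miR-430b exceeded that of miR-430c by 0.49 on average (SD 0.17), with 0.30 as the smallest difference of the 4 positions. miR-430c lay below miR-430j by an average of 0.47 (SD 0.17). By the ratio, miR-430b and miR-430j were thus lower in *lin-28a* than in *lin-28b* morphants, and miR-430c was lower in *lin-28b* morphants. The value of miR-430c was near the median of the 72 unnamed bright probes, of which 37 were as low. Among the 215 zebrafish miRNAs it held rank 16 from the lowest. Centred on bright unnamed probes it was -0.11, and centred on bright spikes -0.08. With Hy3 alone, unscaled, the log2 folds of *lin-28b* over *lin-28a* morphants were -0.08 for miR-430b, -0.18 for miR-430j, -0.25 for miR-430a and -0.65 for miR-430c. With Hy3 scaled on the 46 probes they were 0.81, 0.71, 0.64 and 0.24 in the same order. The sign for miR-430b and miR-430j was thus that of the ratio only with scaling, and that for miR-430c only without it. In both, miR-430b was highest and miR-430c lowest of the 4.

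Over the 3 arrays, miR-430b and miR-430j had the most similar profiles of the family, with a Euclidean distance of log2(Hy3/Hy5) of 0.11. The other distances among bright members ran from 0.29 (miR-430a to miR-430b) to 0.46 (miR-430a to miR-430c), and miR-430i was at least 0.91 from any of them. Since the probes may share signal, such likeness is not a sign of separate agreement.

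Outside the family, the zebrafish miRNAs with the profile nearest to the median of the 4 bright members were dim. Of the 203 compared, miR-150 was nearest at a distance of 0.15, with ratios of 1.41 in control, 0.705 in *lin-28a* and 0.820 in *lin-28b* morphants, against 1.30, 0.678 and 0.774 for the family median. Its Hy3 signals were 26.5, 8.37 and 9.13. miR-216b at 0.24 and miR-9* at 0.29 followed, with Hy3 signals of at most 10.6. Among the 5 other bright miRNAs, let-7c was nearest at 0.57, followed by miR-203a at 0.64 and miR-148 at 0.80. The profiles closest to that of the family thus came from probes too dim to be judged by the study's rule.

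The let-7 family, the classical target of Lin-28, served as the comparison list. Of its 10 members 0 were lower and 0 were higher by over 1.5-fold in either morphant. Among all zebrafish miRNAs, with no limit on Hy3, the *lin-28a* comparison had 7.18% lower and 1.44% higher, and the *lin-28b* comparison had 3.33% lower and 2.86% higher, so that 0 of 10 is near this background. Their median log2 fold was -0.13 in *lin-28a* and -0.19 in *lin-28b* morphants, next to -0.14 for all zebrafish miRNAs in each. The brightest were let-7c, with log2 folds of -0.14 (SD over spots 0.16) and -0.37 (SD 0.29), and let-7b, with -0.02 (SD 0.07) and -0.16 (SD 0.15). Of the 10, only let-7c had a Hy3 signal over 100. Beside let-7c, the other bright miRNAs were miR-7a, miR-17a*, miR-148 and miR-203a. The brightest of these were miR-17a*, with log2 folds of 0.56 (SD 0.62) and -0.04 (SD 0.07), and miR-203a, with -0.13 (SD 0.10) and -0.66 (SD 0.24). The spike controls, synthetic RNAs added during labelling, gave a further reference. The 4 with a Hy3 signal over 100 on every array had log2 folds of the ratio from 0.08 to 0.28 in the *lin-28a* comparison. In the *lin-28b* comparison theirs ran from 0.03 to 0.11, again above 0 where the bright miR-430 members were below it. This signal limit can leave out spikes that dimmed. The other spikes had log2 folds of either sign, from -1.01 to 0.24 and from -1.19 to 0.20 in the same order. Centred on the 4 bright spikes, which was decided on with the values in view, the family median was -1.07 in *lin-28a* and -0.87 in *lin-28b* morphants.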

How the data were processed

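The 3 miRCURY LNA arrays, 1 per group, were hybridised with total RNA of morpholino-injected embryos at 5 hpf. The authors' deposited spot table lists the Hy3 and Hy5 intensity of each spot. The sources used here do not give the image analysis, nor whether background or dyes were corrected. The deposited series table gives a linear Hy3/Hy5 ratio for 208 miRNAs, within 0.396% of the mean spot ratio computed here. Its direction, scale and centring were thus those of the spot table, with medians of 1.09, 0.914 and 0.935 on the control, *lin-28a* and *lin-28b* arrays.

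The 4 spot ratios of a probe were averaged without further scaling. A fold is 1 array's mean over another's, as log2, and its SD is over spot positions. A member was counted at a fold over 1.5, a spot CV under 50% on both arrays and Hy3 over 100 on at least 1 of them. The alternatives were other summaries of the spots, leaving out a spot position, centring, loess, background subtraction, Hy3 alone, other limits and the deposited ratios. Loess used limma 3.58.1 in R 4.3.3. Python 3.11.15, numpy 2.4.6 and pandas 2.3.3 were used, and the computation was tested on simulated data. The number of arrays limits the precision. The text names all 5 members, members of the comparison lists that passed the fold or were brightest, and the 3 nearest profiles among all and among bright miRNAs. A list of miRNAs sharing the seed was planned and not used here, since no mature sequences were used. The members, lists and rules were chosen with earlier results of these data known.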

Additional observations from a re-analysis of the deposited data

Results flagged for a closer look

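miR-430i was the only member with log2 folds of opposite sign in the morphants, -0.25 in *lin-28a* and 0.0095 in *lin-28b* morphants, each from 1 array. The difference between them was not tested. It was smaller than the SD over the spots of this dim probe, 0.39 and 0.35.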

How the results depend on the processing

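The family median log2 fold over control MO, -0.86 in *lin-28a* and -0.79 in *lin-28b* morphants, kept its sign under all 15 alternatives in *lin-28a* and 14 of 15 in *lin-28b* morphants. Leaving out each spot position in turn gave -0.87 to -0.85 and -0.82 to -0.76, with 4 members lower each time, and 0.09 to 0.12 for *lin-28b* over *lin-28a* morphants. Summing or taking medians over spots, subtracting the 5th percentile and the deposited ratios moved no median by more than its SD over spots. Values below are for *lin-28a* over control, *lin-28b* over control and, as the last value, *lin-28b* over *lin-28a* morphants, whose main value was 0.11. Centring on other zebrafish miRNAs gave -0.65, -0.61 and 0.07, with 2 and 2 members lower. Centring on bright unnamed probes gave -0.76, -0.60 and 0.19, with 4 and 2 lower, and loess gave -0.75, -0.60 and 0.17, with 3 and 2 lower. Centring on bright spikes, chosen after seeing the data, gave -1.07, -0.87 and 0.23. Unscaled Hy3 alone gave -0.73, -0.95 and a reversed -0.22. Hy3 alone, scaled on the 46 bright unnamed probes, gave -0.53, a reversed 0.15, and 0.67, with 2 and 1 members lower. It turned miR-430a (0.036), miR-430b (0.56) and miR-430j (0.26) above 0 in *lin-28b* morphants. At a 2-fold limit, 1 and 0 members were lower. Without the Hy3 limit, so with miR-430i, the medians were -0.76, -0.75 and 0.25. The cause of these differences was not tested. No paired analysis was possible because each group had 1 array.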

Other observations

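The labels describe a blend of equal parts of the samples without saying which channel it is. Averaged over the 3 arrays, the Hy3/Hy5 ratio of miR-430a was 0.970 and that of miR-430c 0.826. miR-430b and miR-430j both had 0.919, and miR-430i had 1.26.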
